A study of Mus musculus with 9 samples.

Results

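The Hox genes were followed across 3 mouse fibroblast lines profiled on Affymetrix arrays. Members were all probe sets whose platform annotation gives exactly 1 symbol made of Hox, a letter from a to d and a number. There were 37 such probe sets for 31 genes, of 22690 probe sets and 12393 genes in all, and 31 of the 39 Hox genes listed in RefSeq had a member. The remaining Hox genes were not analysed here, and 3 probe sets shared between Hox genes (Hoxd3 with Hoxd4, Hoxb7 with Hoxb8) were left out by the rule. The lines were NIH 3T3, a wild-type mouse embryo fibroblast line; SV5, a stable NIH 3T3 clone transformed with SV40 large T antigen, a viral oncoprotein; and SV5 NN4, a stable NIH 3T3 clone with both that antigen and wild-type Nras. Each line had 3 arrays, 9 in all, and the labels do not say whether a line's arrays hold RNA of separate cultures; p-values reflect the variation among the arrays only, which may be technical. All lines grew in the same medium with calf serum. Each transformed line is 1 clone, so an effect of the transgenes and a difference between clones cannot be told apart. Nras, the added gene, was read only at its brightest probe set. Its mean there was 7.46 ± 0.37 (SD, n = 3) for NIH 3T3, 8.18 ± 0.36 for SV5 and 8.24 ± 0.21 for SV5 NN4 (log2 levels). SV5 NN4 exceeded SV5 by only 0.06 (SE 0.14, adjusted p = 0.96 in limma). This probe set thus does not show the addition that separates the clones by label. Whether it can detect the added copy was not tested. NIH 3T3 replicate 3 stood apart in the signal of 3′ over 5′ control probe sets, a sign of RNA integrity: its log2 ratio was 5.21 for Gapdh, against 2.36 to 3.52 on the other 8 arrays, and 5.06 for Actb, against 2.42 to 4.63. Every array had a log2 ratio of 2.36 or more for both controls, so an excess of 3′ signal was not limited to that array. Without NIH 3T3 replicate 3 limma again called 0 Hox probe sets in each comparison, but few of all 22690 probe sets were called. Those were 3 in SV5 against NIH 3T3, 317 in SV5 NN4 against SV5 and 222 in SV5 NN4 against NIH 3T3. Values without this array are given beside the differences from NIH 3T3 named for Hoxd8, Hoxd9, Hoxc8, Hoxa4 and Lhx9.

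Hox genes encode homeodomain transcription factors and lie in 4 clusters, a to d, each on its own chromosome. Genes with low numbers act towards the head of the embryo and genes with high numbers towards the tail, and members with the same number in different clusters are close relatives, called paralogues. Fibroblasts keep part of this pattern in culture, and it records the body site they came from. Hox proteins bind DNA with partner homeodomain proteins of the PBX and MEIS families, while Polycomb and Trithorax complexes hold the clusters silent or active.

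Most Hox probe sets gave a signal above background in all 3 lines, as did most of all probe sets. No Hox probe set passed the test between any of the lines, where at most 1.65% of all probe sets did. Levels are given as log2(intensity + 1). The background was taken from 9 control probe sets for the bacterial transcripts Dap, Lys and Trpn, which read 3.18 to 4.25; a probe set counted as above the controls in a line where it exceeded the highest control of the same array on 3 of 3 arrays. By this rule 31 of the 37 Hox probe sets, for 27 genes, were above the controls in at least 1 line and 27 probe sets in every line. In at least 1 line that is 83.8% of the Hox probe sets, against 90.1% of all probe sets, so the limit is a low one. In every line it is 73%, against 84.4%. Only 11 of the 37 had a mean at or above 5.93, the median level over all probe sets.

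By line, 28 Hox probe sets were above the controls on all NIH 3T3 arrays, 29 on all SV5 arrays and 30 on all SV5 NN4 arrays. Of all 22690 probe sets, 19450, 20156 and 19916 were, so the count was lowest in NIH 3T3 there too. The 4 genes with no probe set above the controls in any line were Hoxb1, Hoxb13, Hoxd1 and Hoxd10, and Hoxd10 was below the highest control on all 9 arrays. Hoxa10, Hoxc5, Hoxa4 and Hoxa11 were above on all arrays of some lines only, each with a mean of 4.67 or less in every line. All 11 probe sets of paralogue groups 5 to 8, the middle of the clusters, were above the controls in a line, as were 9 of 12 in groups 1 to 4 and 11 of 14 in groups 9 to 13. The share over all probe sets was 90.1%. Where a gene had several probe sets they could disagree: Hoxa9 averaged 6.8 over the 9 arrays at probe set 1421579_at but 3.86 at 1455626_at, and Hoxa4 averaged 4.46 at 1427354_at but 3.46 at 1420226_x_at.

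**Figure D1:**
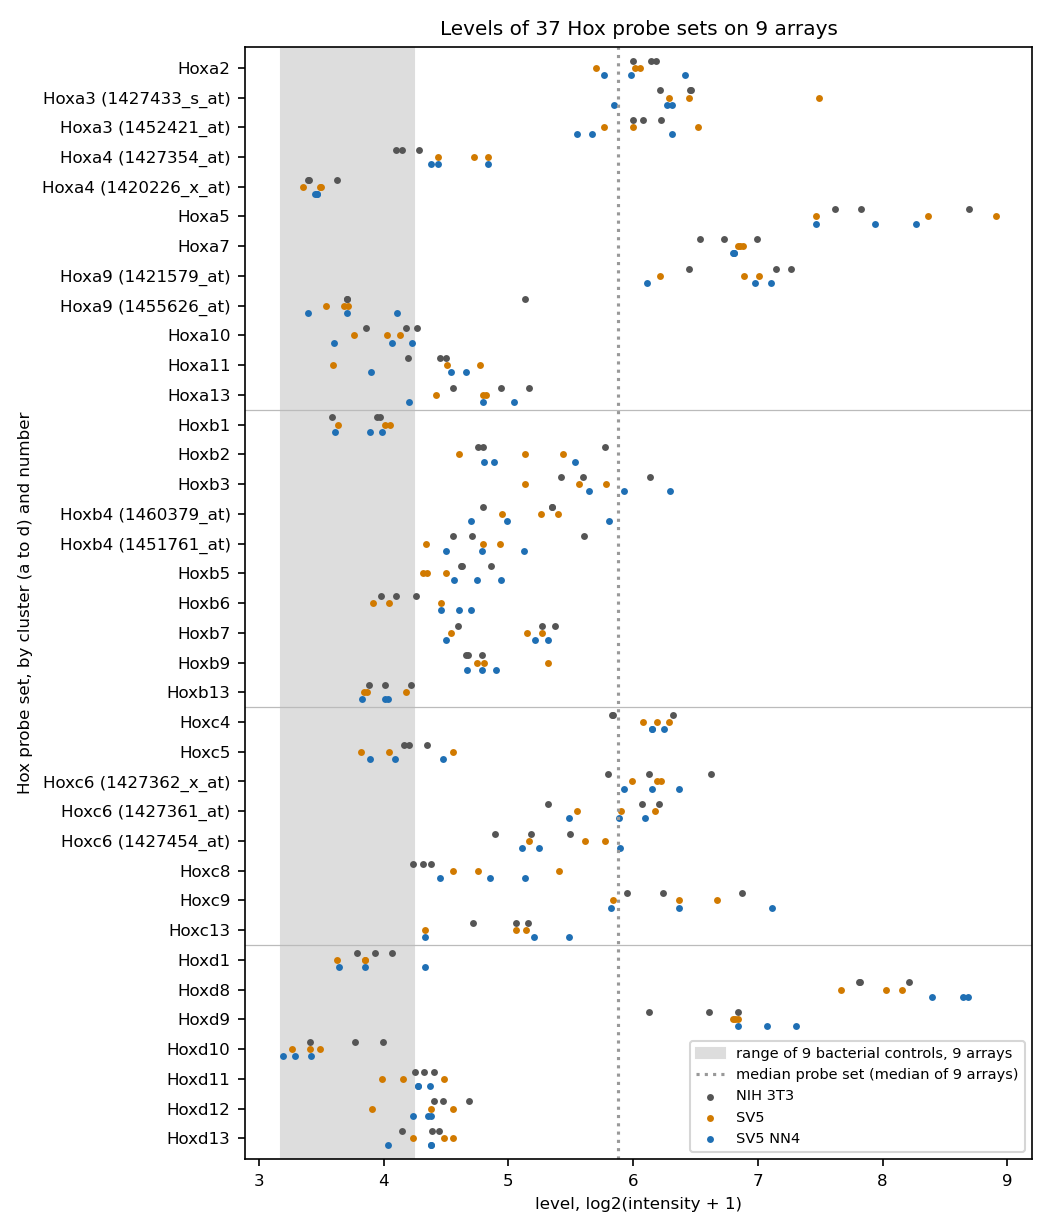
Levels of the 37 Hox probe sets, as log2(intensity + 1) on the horizontal axis, with 1 point per array coloured by line, the range of the bacterial controls shaded and the median probe set dotted. Hoxa5 and Hoxd8 lie farthest from the controls, near 8, the members of cluster b all have means under the median, and the points of the 3 lines largely overlap within each row.

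The probe sets at or above the median level came from clusters a, c and d: 6 from cluster a, 3 from c and 2 from d, with 0 of 10 from cluster b. In cluster a these were Hoxa2, both Hoxa3 probe sets, Hoxa5, Hoxa7 and Hoxa9. In cluster c they were Hoxc4, Hoxc6 and Hoxc9, and in cluster d Hoxd8 and Hoxd9. Most of these genes lie in the front or middle of their clusters, with Hoxa9, Hoxc9 and Hoxd9 the highest numbered. A level also depends on how well the probes of a set bind, so the order of genes by signal is not an order of transcript abundance. Of the labelled cell type, 13 of 13 fibroblast genes were above the controls on all arrays of every line, but so were 90.7%, 93.1% and 92.3% of all genes in NIH 3T3, SV5 and SV5 NN4 and 5 of 5 muscle genes, so that count separates nothing. Levels differed more. The mean level of the epithelial list was 4.23 to 4.76 on the 9 arrays, of the endothelial list 4.15 to 4.89, of the blood list 5.36 to 6.01, of the neural list 4.21 to 5.06, of the muscle list 4.74 to 5.64, of the adipocyte list 4.44 to 5.32 and of the pluripotent list 4.02 to 4.52, against 10.02 to 11.52 for the fibroblast list.

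The promoters of 4 member genes are shown because these genes carry the clearest readings of clusters a and d: Hoxd8 and Hoxd9, neighbouring genes with the largest differences of SV5 NN4 from NIH 3T3; Hoxa5, among the brightest; and Hoxa7, which was nearly level. Each window holds the 250 bases before the RefSeq start of the gene in assembly GRCm38.p6, written 5′ to 3′ on the strand of the gene. The windows are chr2:74697513-74697762 (plus strand) for Hoxd9, chr2:74704365-74704614 (plus strand) for Hoxd8, chr6:52204588-52204837 (minus strand) for Hoxa5 and chr6:52218574-52218823 (minus strand) for Hoxa7. Capitals mark a CCAAT box, a common promoter element.
Hoxd9: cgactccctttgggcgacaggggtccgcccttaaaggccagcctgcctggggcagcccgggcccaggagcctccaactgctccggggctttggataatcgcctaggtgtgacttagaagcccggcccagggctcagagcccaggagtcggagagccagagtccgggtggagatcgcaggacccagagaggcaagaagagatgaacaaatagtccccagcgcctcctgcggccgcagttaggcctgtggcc
Hoxd8: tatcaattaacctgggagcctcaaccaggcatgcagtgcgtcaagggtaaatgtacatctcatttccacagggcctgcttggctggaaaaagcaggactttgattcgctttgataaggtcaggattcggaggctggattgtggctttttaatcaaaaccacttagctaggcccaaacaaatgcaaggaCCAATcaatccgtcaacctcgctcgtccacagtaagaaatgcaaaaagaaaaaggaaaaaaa
Hoxa5: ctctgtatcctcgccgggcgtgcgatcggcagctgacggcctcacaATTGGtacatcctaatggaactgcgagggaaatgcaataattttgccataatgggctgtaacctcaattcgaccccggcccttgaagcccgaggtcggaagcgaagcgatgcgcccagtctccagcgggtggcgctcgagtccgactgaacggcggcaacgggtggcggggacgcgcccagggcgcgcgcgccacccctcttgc
Hoxa7: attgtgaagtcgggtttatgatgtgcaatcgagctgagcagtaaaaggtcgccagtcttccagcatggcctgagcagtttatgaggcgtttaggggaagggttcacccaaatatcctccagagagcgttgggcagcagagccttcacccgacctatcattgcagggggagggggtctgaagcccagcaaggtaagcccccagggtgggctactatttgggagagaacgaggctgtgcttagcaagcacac

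The starts of Hoxd9 and Hoxd8 lie 6852 bases apart. The Hoxa5 window is rich in CpG dinucleotides, with 28, against 13 for Hoxd9, 7 for Hoxa7 and 6 for Hoxd8; the median was 12.5 over the 24 Hox windows in the table and 6 over all 32851 windows. These Hox windows belong to 22 genes, 18 of them members. Each motif was searched on both strands, and none contains another. The CCAAT box was in 58.3% of the Hox windows and 33.8% of all windows, and it lay in the windows of Hoxd8 and, on the opposite strand, Hoxa5. The TATA box, written TATAAA, was in 16.7% of the Hox windows and 12.4% of all. A site for HOX with PBX, written TGATTNAT, was in 8.33% and 2.82%. A site for MEIS, written TGACAG, was in 8.33% and 15.9%. Of these motifs only the CCAAT box was in the windows shown. A match is a run of letters and not a shown binding site.

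The differences between lines were tested with limma on all 9 arrays, with equal replicate numbers paired and p-values adjusted over all 22690 probe sets (called at an adjusted p under 0.05). Of the 37 Hox probe sets 0 were called in SV5 against NIH 3T3, where 0.0617% of all probe sets were; 0 in SV5 NN4 against SV5, where 0.864% were; and 0 in SV5 NN4 against NIH 3T3, where 1.65% were. With so few called in all, 0 of 37 does not set the Hox probe sets apart. At an unadjusted p under 0.05 in limma there were 4 Hox probe sets against 14.2% of all, 5 against 13%, and 5 against 17.1%, so the Hox shares of 10.8%, 13.5% and 13.5% were near or below the background. Without pairing, limma also called 0 in each comparison, with 1, 2 and 3 at an unadjusted p under 0.05, where 2.84%, 4.26% and 4.7% of all were. All 3 pairs had the same sign for 5 Hox probe sets upwards and 8 downwards in SV5 against NIH 3T3 (12.9% and 17.4% of all probe sets), for 6 and 8 in SV5 NN4 against SV5 (20.9% and 19.6%), and for 7 and 5 in SV5 NN4 against NIH 3T3 (16.9% and 19%). A far larger difference was called at another gene: between SV5 NN4 and SV5 the level of Cdh11, an adhesion molecule of mesenchyme, fell by 6.84 (SE 0.39, adjusted p = 0.0013 in limma). This was the largest difference of all 22690 probe sets in that comparison, so it does not show whether differences of the size seen for Hox genes can be resolved.

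The Hox differences were small, and their intervals give the size that these arrays allow. The median size of the log2 difference over the Hox probe sets was 0.14, 0.09 and 0.09 in the 3 comparisons in that order, against 0.17, 0.14 and 0.18 over all probe sets. The 95% interval of the difference (not adjusted for the number of probe sets) lay within 1 of 0, that is within a doubling or a halving of the signal, for 35, 36 and 35 of the 37, against 85.2%, 85.4% and 83% of all probe sets. The exceptions were Hoxc8 and the dim Hoxa9 probe set 1455626_at in both comparisons with NIH 3T3, and the Hoxa3 probe set 1427433_s_at in SV5 NN4 against SV5. Near the controls, background makes up much of the signal, so an interval there does not bound the change in transcript.

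**Figure D2:**
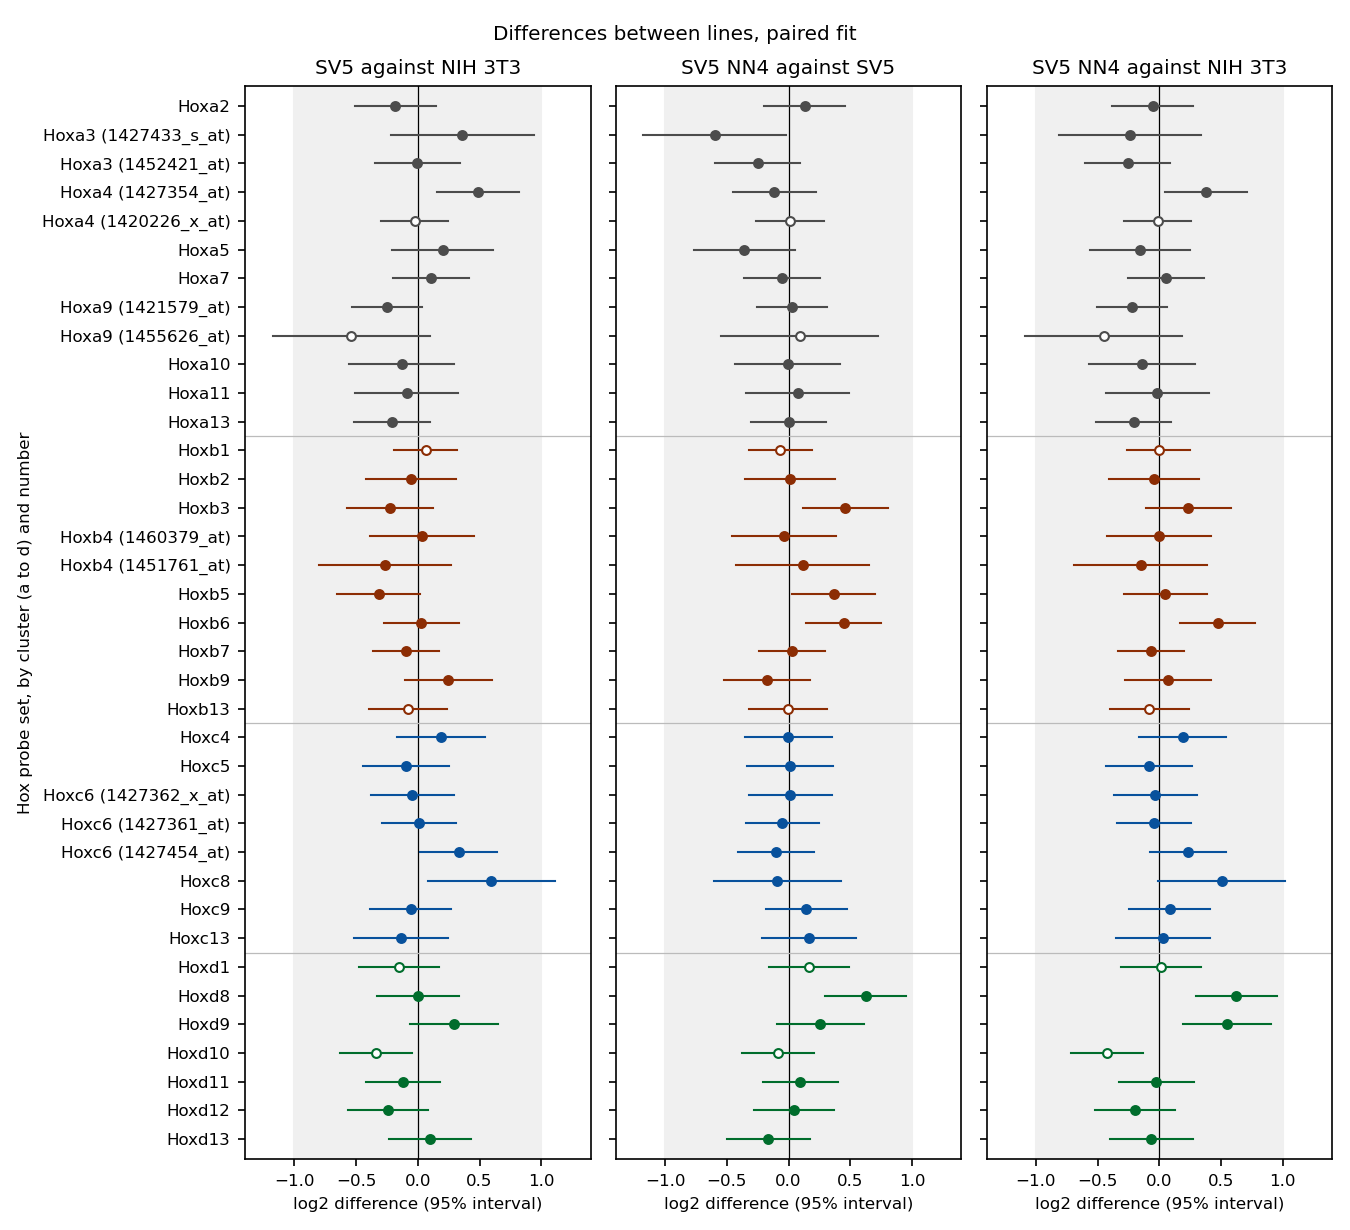
Log2 difference of each Hox probe set (point) with its 95% interval (line) in the paired limma fit, in 1 panel per comparison, coloured by cluster; open points were not above the controls in any line and the shading marks 1 either side of 0. Intervals of Hoxd8 in both comparisons of SV5 NN4 stay above 0, at 0.29 to 0.96 in each, while most others cross 0.

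Hoxd8, a middle gene of cluster d, gave the largest reading in SV5 NN4. It read 8.21, 7.82 and 7.81 for NIH 3T3 replicates 1, 2 and 3, 8.02, 7.67 and 8.16 for SV5 and 8.68, 8.4 and 8.64 for SV5 NN4. All 3 SV5 NN4 arrays were above all 6 arrays of the other lines. The difference from SV5 was 0.62 (SE 0.14, 95% interval 0.29 to 0.96, 1.54-fold), with pairs of 0.66, 0.73 and 0.49, and it did not pass the test (limma, adjusted p = 0.1). The difference from NIH 3T3, which shares the SV5 NN4 arrays, was 0.63 (SE 0.14, adjusted p = 0.084 in limma; 0.49 without NIH 3T3 replicate 3, adjusted p = 0.16), and SV5 and NIH 3T3 differed by 0.00 (95% interval -0.33 to 0.33). With only SV5 and SV5 NN4 in the limma fit the first difference was called (adjusted p = 0.028), and without NIH 3T3 replicate 1 both were, at 0.62 (adjusted p = 0.049) and 0.71 (adjusted p = 0.046); without the pairing the adjusted p was 0.85 and 0.77.

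Hoxd9, the neighbour of Hoxd8 on its 5′ side, read 6.13, 6.61 and 6.84 for NIH 3T3, 6.8, 6.81 and 6.84 for SV5 and 6.84, 7.08 and 7.31 for SV5 NN4. Every SV5 NN4 array was at or above the highest of the other lines, and the value shared by NIH 3T3 replicate 3, SV5 replicate 3 and SV5 NN4 replicate 1 was the same to all deposited digits. Such equal values occurred in 13 of the 37 Hox probe sets and 30% of all probe sets. The difference of Hoxd9 between SV5 NN4 and NIH 3T3 was 0.55 (SE 0.15, 95% interval 0.2 to 0.9, adjusted p = 0.13 in limma, higher in 3 of 3 pairs; 0.64 without NIH 3T3 replicate 3, adjusted p = 0.14), and that between SV5 NN4 and SV5 was 0.26 (SE 0.15, adjusted p = 0.6).

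The next genes of the cluster were too dim to compare with Hoxd8 and Hoxd9. Hoxd10 was under the controls on all 9 arrays, at 3.72 ± 0.3 (SD, n = 3) for NIH 3T3, 3.39 ± 0.12 for SV5 and 3.3 ± 0.11 for SV5 NN4, and no fold is given for it. Hoxd11, Hoxd12 and Hoxd13, which pattern the limb and the rear of the trunk, had means of 4.21 to 4.52 in the 3 lines. Their differences between lines ran from -0.24 to 0.1, with unadjusted p of 0.12 or more in limma, at levels near the controls where a change may be understated.

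In cluster b the genes Hoxb3, Hoxb5 and Hoxb6, which act in the hindbrain, neck and thorax of the embryo, were higher in SV5 NN4 than in SV5 in 3 of 3 pairs, and none was called. Hoxb6 read 4.1, 4.26 and 3.98 for NIH 3T3, 4.05, 4.46 and 3.91 for SV5 and 4.46, 4.7 and 4.6 for SV5 NN4. Its NIH 3T3 and SV5 levels lay barely above the controls, and its SV5 NN4 arrays overlapped SV5 by less than 0.01, in SV5 replicate 2. The difference was 0.45 against SV5 (SE 0.13, unadjusted p = 0.01, adjusted p = 0.18 in limma) and 0.47 against NIH 3T3 (SE 0.13, adjusted p = 0.13). Because these levels are so near the background, the change in transcript may be understated.

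Hoxb5 read 4.62, 4.86 and 4.63 for NIH 3T3, 4.5, 4.34 and 4.31 for SV5 and 4.94, 4.57 and 4.75 for SV5 NN4. SV5 was the low line here and did not overlap either of the others. The difference of SV5 NN4 from SV5 was 0.37 (SE 0.14, adjusted p = 0.33 in limma), that of SV5 from NIH 3T3 -0.32 (SE 0.14, adjusted p = 0.38), and SV5 NN4 and NIH 3T3 differed by 0.05 (95% interval -0.29 to 0.39). Hoxb3 read 5.42, 6.14 and 5.6 for NIH 3T3, 5.57, 5.78 and 5.14 for SV5 and 5.93, 6.3 and 5.65 for SV5 NN4. The lines overlapped, and the replicate 2 array was the brightest of each line. Its pairs of SV5 NN4 minus SV5 were 0.36, 0.51 and 0.51, for a difference of 0.46 (SE 0.15, adjusted p = 0.23 in limma). Hoxb4, which lies between them, gave no such reading: the SV5 NN4 minus SV5 difference was -0.03 and 0.11 at the Hoxb4 probe sets. It was 0.03 at Hoxb7, 0.01 at Hoxb2 and -0.17 at Hoxb9.

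**Figure D3:**
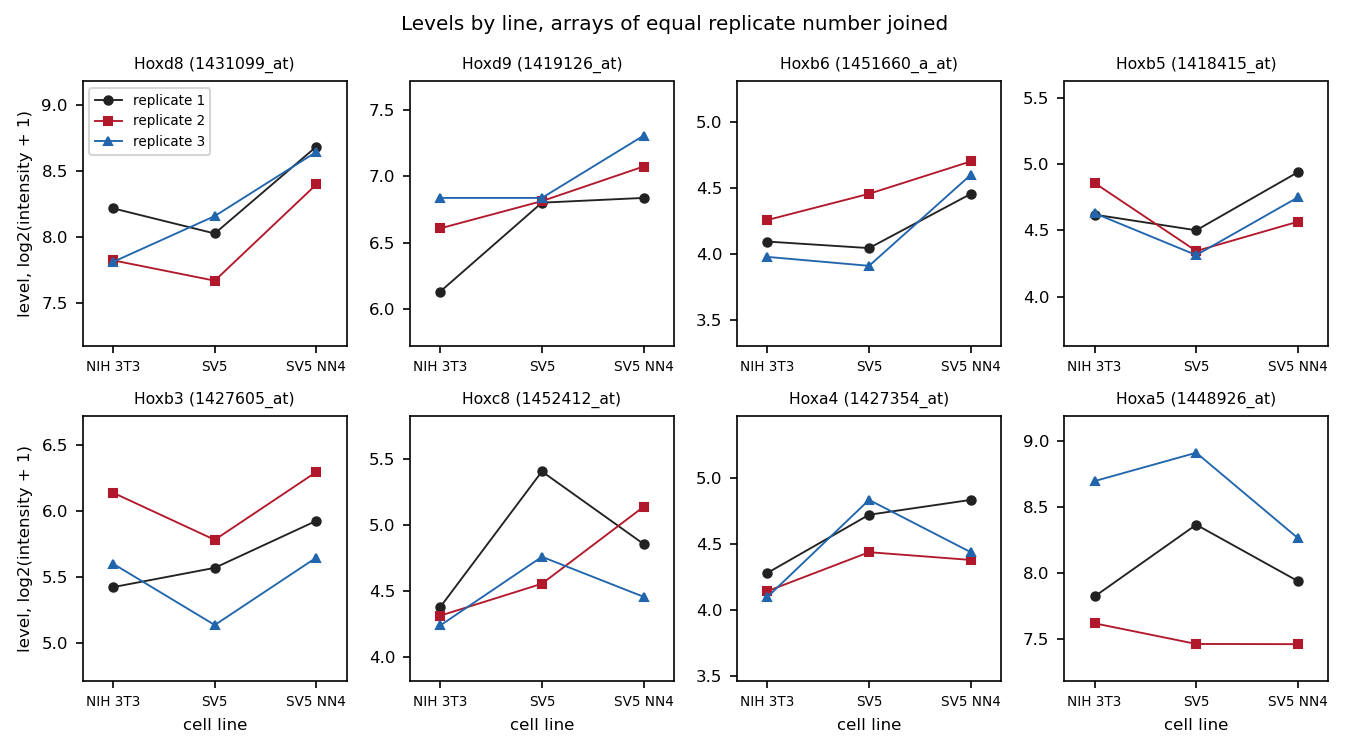
Levels of 8 Hox probe sets, as log2(intensity + 1) on the vertical axis (each panel spans 2 log2 units), by line, with arrays of equal replicate number joined. For Hoxd8 the joined SV5 NN4 arrays lie 0.49 to 0.73 above SV5, whereas those of Hoxc8 go in different directions there, at -0.55, 0.58 and -0.3.

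The readings of SV5 against NIH 3T3 were led by other genes. Hoxc8, which patterns the thorax, read 4.38, 4.31 and 4.24 for NIH 3T3, 5.4, 4.55 and 4.76 for SV5 and 4.85, 5.14 and 4.45 for SV5 NN4. NIH 3T3 was the low line and overlapped neither clone. Its levels lay near the controls, at 4.31 against a highest control of 4.25 on replicate 2, so the change in transcript may be understated. The difference of SV5 from NIH 3T3 was 0.6 (SE 0.22, 95% interval 0.08 to 1.11, adjusted p = 0.29 in limma), with pairs of 1.03, 0.24 and 0.52, and that of SV5 NN4 from NIH 3T3 was 0.51 (SE 0.22, adjusted p = 0.3). Without NIH 3T3 replicate 3 these were 0.69 (adjusted p = 0.29 in limma) and 0.6 (adjusted p = 0.32). Hoxa4, at probe set 1427354_at, read 4.28, 4.14 and 4.1 for NIH 3T3, 4.72, 4.44 and 4.84 for SV5 and 4.84, 4.38 and 4.44 for SV5 NN4. Here too all NIH 3T3 arrays were below all others, but only 2 of these 3 exceeded the controls, so Hoxa4 was not above background in NIH 3T3 and the measured differences may understate the change. They were 0.49 in SV5 (SE 0.14, adjusted p = 0.21 in limma) and 0.38 in SV5 NN4 (SE 0.14, adjusted p = 0.24), and 0.44 and 0.32 without NIH 3T3 replicate 3 (adjusted p = 0.3 and 0.4). Hoxc6 differed by 0.33 between SV5 and NIH 3T3 at probe set 1427454_at (SE 0.13, unadjusted p = 0.04, adjusted p = 0.32), but by 0.01 and -0.05 at the other two.

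Counts of members whose groups did not overlap are read beside those of all probe sets. For SV5 against NIH 3T3, 2 Hox probe sets (Hoxa4 and Hoxc8) lay wholly above, where 2.16% of all did, and 1 (Hoxb5) wholly below, where 2.39% did. For SV5 NN4 against SV5, 2 (Hoxb5 and Hoxd8) lay above, where 4.21% of all did, and 1 (Hoxa7) below, where 3.72% did. For SV5 NN4 against NIH 3T3, 4 (10.8%; Hoxa4, Hoxb6, Hoxc8 and Hoxd8) lay above, where 3.34% of all did, and 1 (Hoxd12) below, where 3.11% did. The comparisons share arrays, so the repeated counts of Hoxa4, Hoxb5, Hoxc8 and Hoxd8 are not independent.

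The brighter members of cluster a were not called either. Hoxa5, which acts in lung and axial skeleton, read 7.82, 7.62 and 8.7 for NIH 3T3, 8.37, 7.46 and 8.91 for SV5 and 7.94, 7.46 and 8.26 for SV5 NN4. Replicate 3 was the highest and replicate 2 the lowest array of every line, and the lines overlapped. The difference between SV5 NN4 and SV5 was -0.36 (SE 0.17, 95% interval -0.76 to 0.05, adjusted p = 0.47 in limma), with pairs of -0.43, 0.00 and -0.65. Hoxa7, a thoracic gene, read 6.54, 6.72 and 6.99 for NIH 3T3, 6.84, 6.86 and 6.88 for SV5 and 6.81, 6.81 and 6.8 for SV5 NN4. It was nearly constant within each clone, and its intervals allow differences of at most 0.42 in size in any comparison.

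Hoxa9, known for its part in blood progenitors and leukaemia, read 7.15, 7.27 and 6.45 for NIH 3T3, 6.89, 7.01 and 6.21 for SV5 and 7.11, 6.98 and 6.11 for SV5 NN4 at probe set 1421579_at. Replicate 3 was the lowest array in every line. SV5 differed from NIH 3T3 by -0.25 (SE 0.12, adjusted p = 0.4 in limma) and SV5 NN4 from SV5 by 0.03 (95% interval -0.26 to 0.31). Hoxa3, which acts in the neck and thymus, was lower in SV5 NN4 than in SV5 in 3 of 3 pairs at both probe sets, by -0.6 (SE 0.25, unadjusted p = 0.044, adjusted p = 0.36) at 1427433_s_at and -0.25 (SE 0.15, adjusted p = 0.6) at 1452421_at. The first difference leans on SV5 replicate 3, at 7.49 against 5.85 to 6.47 on the other arrays. The suffix _s_at marks a probe set whose probes can match more than 1 transcript.

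The Hox signals varied more with replicate number than with line. Replicate number held a median of 52.8% of the variance over the Hox probe sets and line 14%, against 59.5% and 14.6% over all probe sets. For Hoxb7, Hoxb1, Hoxc6 (1427361_at), Hoxc9, Hoxa9 (1421579_at) and Hoxb2, replicate number held 89.2% to 96.9%. Line held more than replicate number for 9 Hox probe sets, or 24.3%, against 19.9% of all probe sets: Hoxd8 (73.4%), Hoxb5 (65.1%), Hoxb6 (64.9%), Hoxa4 at 1427354_at (63.8%), Hoxd10 (57%), Hoxd9 (54.9%), Hoxc8 (49.3%), Hoxa3 at 1427433_s_at (34.7%) and Hoxc4 (27.9%).

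**Figure D4:**
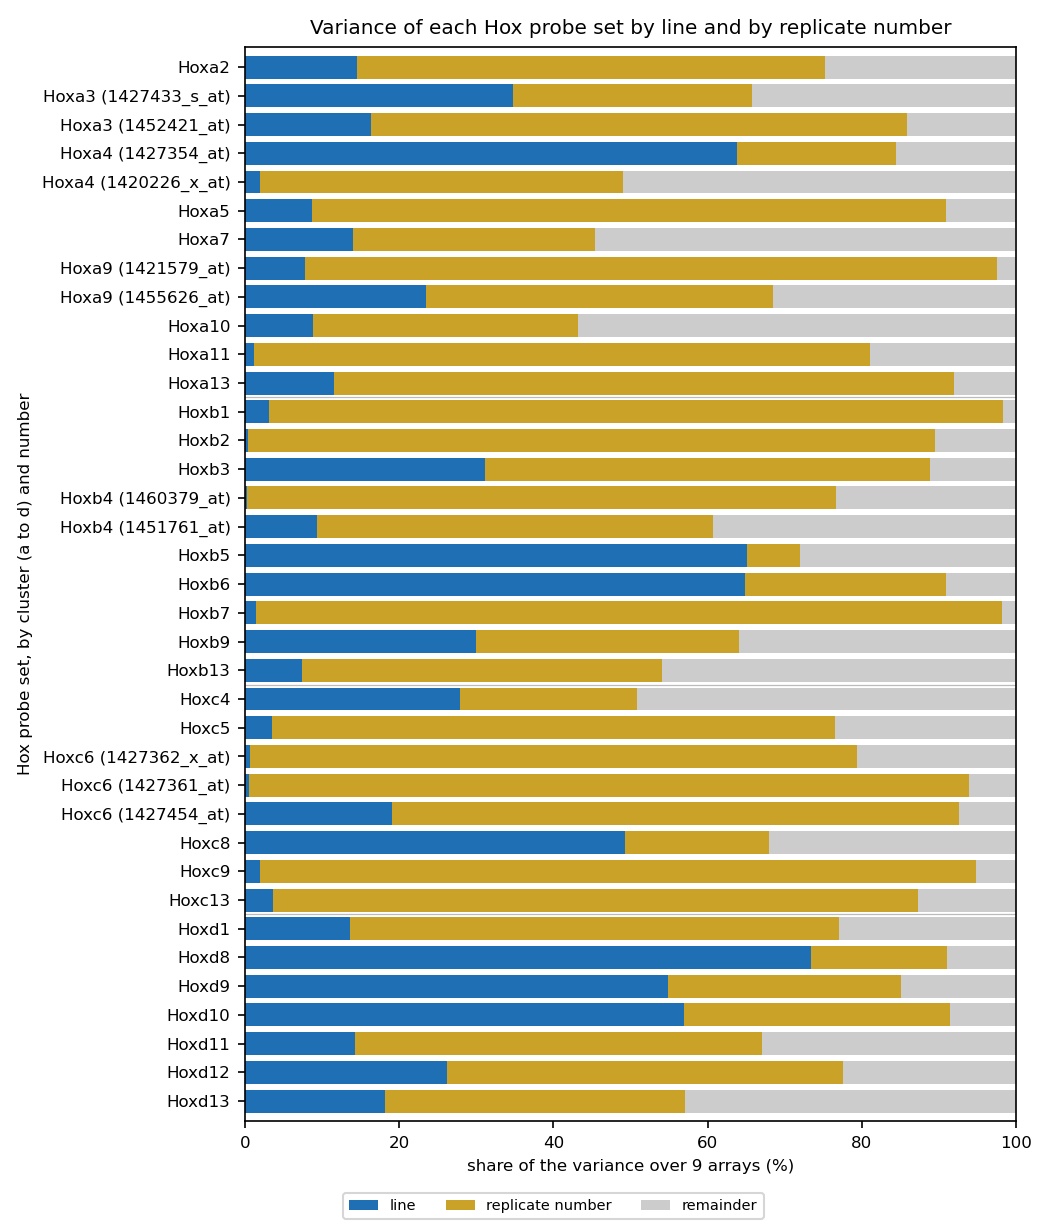
Share of the variance over the 9 arrays, in percent, that lay between lines, between replicate numbers and in the remainder, for each Hox probe set. The bars for line are longest for Hoxd8, Hoxb5, Hoxb6 and Hoxa4 (63.8% to 73.4%), and replicate number takes most of the bar in most other rows.

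The median difference of each cluster lay within 0.15 of 0 in every comparison. In SV5 against NIH 3T3 the median differences of clusters a, b, c and d were -0.06, -0.07, -0.02 and -0.12; in SV5 NN4 against SV5 they were 0.00, 0.02, 0.00 and 0.1; and in SV5 NN4 against NIH 3T3 they were -0.15, 0.00, 0.06 and -0.02. The median over all probe sets was -0.04, 0.01 and -0.03. By paralogue group, groups 9 to 13 had medians of -0.13, 0.03 and -0.07 and groups 5 to 8 had 0.01, 0.01 and 0.05. Differences above 0 made up 15, 21 and 15 of the 37, or 40.5%, 56.8% and 40.5%, against 43.7%, 51.9% and 44.9% of all probe sets.

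The genes that work with or control the Hox clusters also gave no calls, each read at its brightest probe set. Of the PBX, MEIS and PKNOX cofactors, 8 of 9 were measured, of the inducers of Hox clusters such as Cdx factors and retinoic acid receptors 15 of 17, of the Polycomb repressors 15 of 17 and of the Trithorax and demethylase activators 7 of 9. Limma called 0 members of these lists in all 3 comparisons, with or without pairing, where 0.0484%, 1.05% and 1.96% of all genes were called with it. At an unadjusted p under 0.05 the cofactors had 1, 2 and 1 members in the 3 comparisons, the inducers 0, 0 and 1, Polycomb 4, 4 and 2 and the activators 1, 2 and 2, where 15%, 14.6% and 19.4% of all genes were.

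Other transcription factors of body position were mostly not called either, with 1 exception at a brightest probe set. Lhx9, a LIM homeodomain factor of limb and gonad, fell by 0.88 in SV5 NN4 against NIH 3T3 (SE 0.12, adjusted p = 0.026 in the paired limma fit, lower in 3 of 3 pairs), from 7.25 ± 0.3 (SD, n = 3) to 6.37 ± 0.39, and SV5 lay at 6.51 ± 0.27. Its other probe set differed by -0.11. The call was lost without the pairing (adjusted p = 0.69), with only these lines in the fit (adjusted p = 0.11), and on leaving out 1 array, for 7 of the 9 arrays (all but NIH 3T3 replicate 1 and SV5 replicate 3), at differences of -0.96 to -0.8; without NIH 3T3 replicate 3 it was -0.91 (adjusted p = 0.052). The call held under the other 6 of 8 settings, which all keep the pairing and the 9 arrays. In the same comparison 3 of 13 fibroblast markers fell and the median difference of that list was -0.55. The part of this shift in the Lhx9 difference was not tested. It was the 1 call among 39 measured homeobox and T-box factors, or 2.56%, where 1.96% of all genes were called, and 0 of 15 other mesenchyme factors were called there. In the other comparisons limma called 0 of both lists. At an unadjusted p under 0.05 in limma the homeobox and T-box list had 7, 5 and 9 of 39 members in SV5 against NIH 3T3, SV5 NN4 against SV5 and SV5 NN4 against NIH 3T3, and the mesenchyme list 3, 3 and 4 of 15, where 15%, 14.6% and 19.4% of all genes were.

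Prrx1 and Nr2f2 had a call in SV5 NN4 against SV5, each at a probe set other than the brightest of the gene, singled out after its values were seen. Over the 9 arrays the called probe set averaged 9.7 for Prrx1, against 9.71 at the brightest, and 6.54 for Nr2f2, against 8.64. Prrx1, a homeobox factor of limb and face mesenchyme, fell by 1.78 at 1425528_at (SE 0.27, adjusted p = 0.038 in limma, lower in 3 of 3 pairs), and its other 3 probe sets differed by -1.32, -0.79 and -0.63. Nr2f2, a nuclear receptor of mesenchyme and veins, fell by 0.9 at 1416160_at (SE 0.14, adjusted p = 0.044), and its other probe sets differed by -0.89 and -0.53. Both calls were lost without the pairing (adjusted p = 1). Fibroblast markers moved in the same comparison: limma called 5 of 13 lower in SV5 NN4 against SV5 (1 without the pairing), where 1.05% of all genes were called. Of the 13, 10 were lower at an unadjusted p under 0.05, where 14.6% of all genes passed in either direction, and only 1 had a difference above 0. The mean level of the list was 10.02 to 10.2 on the SV5 NN4 arrays against 11.11 to 11.4 on the SV5 arrays. The 3′ over 5′ signal of Actb was higher on the SV5 NN4 array in 3 of 3 pairs (log2 ratio of 4.07, 4.63 and 3.66, against 3.73, 4.32 and 2.42). So was that of Gapdh (2.66, 3.52 and 3.05, against 2.45, 3.03 and 2.36). The part of these shifts in the Prrx1, Nr2f2 and Hox readings was not tested.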

How the data were processed

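Total RNA of 3 lines was labelled as biotinylated cRNA by the Affymetrix one-cycle procedure, per the labels' protocols. The authors deposited 1 linear-scale intensity per probe set and array, made with RMA per the submitters' processing notes; its version and options are not given there. Array medians were 56.2 to 62.35 and upper quartiles 165.2 to 239.7, so the arrays do not share 1 distribution of values. Replicate 3 had the highest upper quartile of each line, at 218.7 for NIH 3T3, 235 for SV5 and 239.7 for SV5 NN4. Where RMA brings arrays to a common level, a shift of most transcripts together is lost. The number of arrays limits the precision.

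Values were used as log2(intensity + 1). Gene symbols were those of GEO's platform annotation (20393 probe sets with 1 symbol, 691 with several, 1606 with none); all 31 Hox symbols were in the RefSeq table of GRCm38.p6, which also supplied the promoter windows. Outside the Hox family a gene was read at its brightest probe set. Limma 3.58.1 in R 4.3.3 (lmFit, eBayes, Benjamini-Hochberg over all probe sets) was fitted to all 9 arrays with replicate number as a block, and was tested on simulated data.

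The pairing uses the replicate numbers of the labels, which do not say what a number stands for. It was checked in the data: after subtracting line means, equal-numbered arrays of different lines correlated at 0.26 to 0.84 across probe sets and others at -0.73 to 0.11. After this step the arrays of a line sum to 0. The low values of the others thus follow in part from the high ones and are not separate evidence. No 2 arrays of a line were copies, with at most 532 equal values. The members, lists, tests and the rule for named genes were chosen with earlier results of these data known. The rule asked for every Hox probe set above the controls in a line, and called members of the other lists. Values by array are given for only some of these Hox probe sets, among them Hoxd8 and Hoxc8, which had the largest differences. Hoxa13 and Hoxc13, above the controls on all 9 arrays, are named only here, and limma called neither. Alternatives were another or no pseudocount, median centring, quantile normalization, a filter at the controls, an intensity trend, only 2 lines, no block, each array left out, and other detection limits.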

Additional observations from a re-analysis of the deposited data

How the results depend on the processing

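The count of 0 called Hox probe sets held under all 8 other settings in SV5 against NIH 3T3 and SV5 NN4 against NIH 3T3, and under 7 in SV5 NN4 against SV5; with only the 2 lines compared it was 1 there (Hoxd8). With single arrays left out it was 0 to 1 in both comparisons of SV5 NN4, the 1 being Hoxd8 without NIH 3T3 replicate 1, and 0 in SV5 against NIH 3T3. The fit without the replicate block also gave 0 Hox calls in each, and called 1, 19 and 18 probe sets in all in place of 14, 196 and 375 (SV5 against NIH 3T3, SV5 NN4 against SV5, SV5 NN4 against NIH 3T3). Other settings gave 0 to 15, 138 to 1504 and 18 to 423 in all, and leaving out single arrays 0 to 49, 14 to 950 and 13 to 1239. Hox probe sets at an unadjusted p under 0.05 numbered 1 to 6, 1 to 6 and 3 to 7. The number of Hox probe sets above the controls, 31, was 27 against the highest control on any array, 29 against the controls' mean plus 3 SD, and 33 with 2 of 3 arrays. Of 1581 recomputed differences of the Hox probe sets above the controls in a line, 105 changed sign, all of them uncalled and at most 0.27 in size, and 38 moved by more than their SE. Many of the 1581 could not change. The fits without the block, with the filter at the controls, with the intensity trend or with only 2 lines keep each difference. So does leaving out an array of the line not compared. The shares that changed are thus larger among the settings that can move a difference. Signal over background limits the dim members: 26 of the 37 lie below the median level.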
